A study of Saccharomyces cerevisiae CEN.PK113-7D with 6 samples.

Results

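The genes examined here encode the NADH and lactate dehydrogenases of Saccharomyces cerevisiae that bear the names NDI1, NDE1, NDE2, CYB2, DLD1, DLD2 and DLD3. They were chosen by symbol or alias, with the brightest probe set standing for a gene, and all 7 were found among 5449 measured genes. Each of the 7 has 1 probe set. The samples came from the haploid laboratory strain CEN.PK113-7D, and no mutation, transgene or added agent is named in the labels. Total RNA of 3 chemostat samples (replicates 4, 8 and 9) and 3 batch samples (replicates 1, 2 and 3), all grown on glucose, was hybridised, after biotin labelling, to 1 GeneChip array per sample. In a chemostat, steady inflow and outflow of medium hold the growth rate constant, whereas a batch culture uses up what it was given. Not given in the sources used here were the dilution rate, the limiting nutrient and the stage of growth at which batch cultures were sampled. No label says that replicates were separate cultures, and the p-values then reflect only the spread between these samples, possibly a technical one.

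Baker's yeast has no proton-pumping complex I. Its mitochondria oxidise NADH with simpler flavoprotein enzymes that pass electrons to ubiquinone without pumping protons. Ndi1 faces the matrix and oxidises NADH made there, by the tricarboxylic acid cycle among others, while Nde1 and Nde2 face the intermembrane space and oxidise NADH from the cytosol. The lactate enzymes enter the chain further down. Cyb2, also called flavocytochrome b2, oxidises L-lactate in the intermembrane space, and Dld1 oxidises D-lactate at the inner membrane. Both hand their electrons to cytochrome c. Dld2 and Dld3 are relatives of Dld1 that act on D-2-hydroxyglutarate as well as D-lactate. Dld2 lies in the mitochondrial matrix, and Dld3 is cytosolic, so the family is not wholly mitochondrial.

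The arrays were alike within each group, with Pearson correlations across genes from 0.995 to 0.999 within chemostat, from 0.994 to 0.997 within batch and from 0.815 to 0.853 between groups. Genes are not independent replicates in these values. Signals are on a log scale whose base was taken as 2 from the range of the values, and the median over genes was between 7.95 and 7.97 on the 6 arrays. The arrays also hold probe sets of Schizosaccharomyces pombe, a yeast not in the samples, and their 95th percentile of 5.94 is used here as background. Signals near it compress changes. Mating type a genes, the type of this strain, averaged between 6.70 and 9.90 in chemostat and between 6.34 and 11.18 in batch. Mating type alpha genes averaged between 5.54 and 7.13 in chemostat and between 5.44 and 6.69 in batch.

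All 3 NADH dehydrogenase genes and CYB2 were higher in chemostat, and all 3 DLD genes were lower. By limma, with p-values adjusted over all genes (Benjamini-Hochberg), 4 of the 7 passed as higher and 3 as lower at an adjusted p of 0.05. Among all genes 78.4% passed in either direction, with 33.6% higher and 44.8% lower, so passing the test does not set these genes apart. For all 7 the groups did not overlap, as was the case for 81.7% of all genes (35.3% with chemostat above and 46.4% with chemostat below). The members differed in the size of the change, which ran between -1.66 for DLD3 and a fitted 4.01 for NDE2 on the log2 scale (a bound of 3.77, since NDE2 was below background in batch), against a median of -0.06 over all genes. In bulk RNA a lower signal may come from fewer cells with the transcript or from less transcript per cell, and these cannot be told apart.

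**Figure D1:**
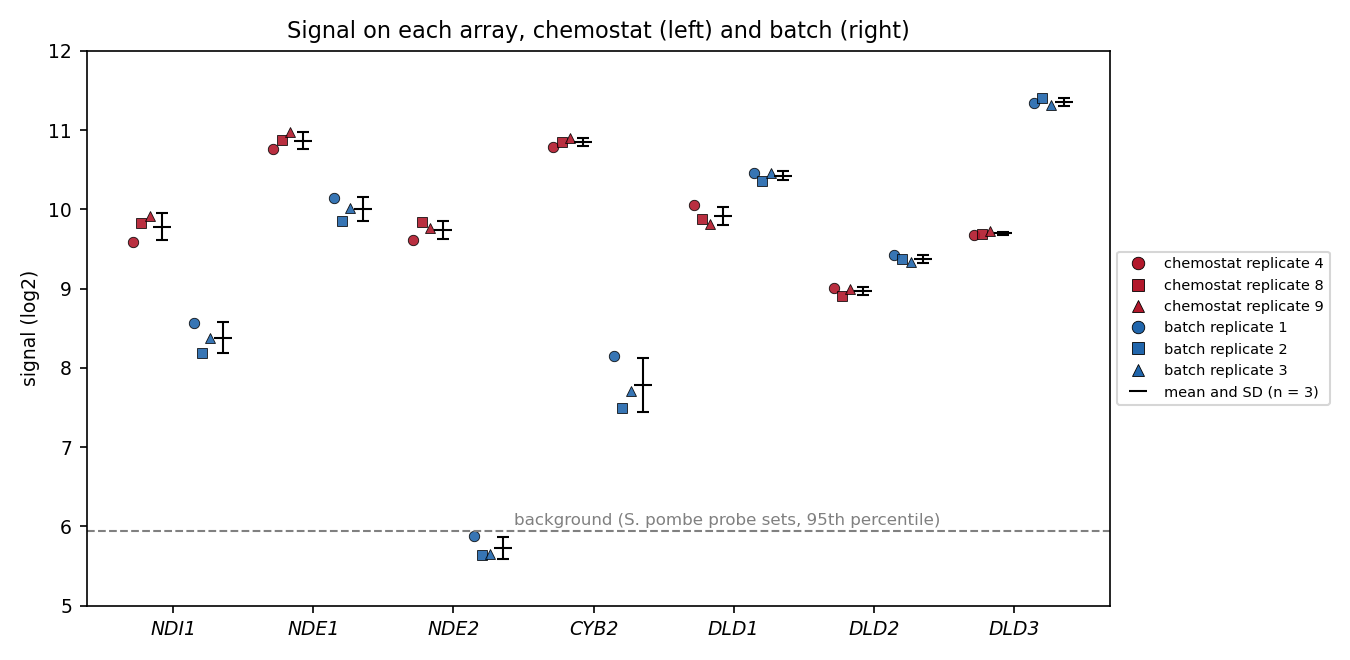
Signal (log2) of each of the 7 genes on each array, with chemostat arrays in red on the left and batch arrays in blue on the right of each pair. Bars give mean and SD over 3 arrays, and the dashed line marks background at 5.94. The groups are apart for every gene, and NDE2 is the gene whose batch signals lie under the line.

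NDE2, an external NADH dehydrogenase, had the largest change of the 7. Its signal was 9.61, 9.85 and 9.76 in chemostat replicates 4, 8 and 9, against 5.88, 5.64 and 5.65 in batch replicates 1, 2 and 3. Every batch signal was below background and every chemostat signal was far above it. With batch arrays set to background, NDE2 was at least 13.7-fold higher in chemostat (adjusted p = 4.80e-09, limma).

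NDE1, the other external enzyme, was well above background in both cultures and changed much less. Chemostat signals were 10.76, 10.87 and 10.97, against 10.15, 9.85 and 10.01 in batch. The chemostat arrays all lay above the batch arrays, by 0.86 log2 units on average (SE 0.082, 95% interval 0.67 to 1.05, 1.82-fold, adjusted p = 2.01e-05, limma).

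NDI1, which encodes the matrix-facing enzyme, stood between them. It gave 9.59, 9.83 and 9.92 in chemostat and 8.57, 8.18 and 8.38 in batch. Again no batch array reached a chemostat array. The rise was 1.40 log2 units (SE 0.11, 95% interval 1.14 to 1.66), or 2.64-fold, with an adjusted p of 6.96e-06 (limma).

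CYB2, the L-lactate cytochrome c oxidoreductase, was the lactate dehydrogenase gene that rose. Chemostat signals were 10.79, 10.85 and 10.895, against 8.15, 7.50 and 7.71 in batch. The chemostat arrays were nearly equal (SD 0.052), whereas the batch arrays were spread more widely (SD 0.34), with replicate 1 highest. CYB2 rose by 3.06 log2 units (SE 0.14, 95% interval 2.73 to 3.39, 8.34-fold, adjusted p = 4.01e-07, limma), and 95 genes had a larger rise.

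DLD1, the mitochondrial D-lactate dehydrogenase, moved in the opposite direction. It gave 10.05, 9.88 and 9.82 in chemostat, against 10.46, 10.35 and 10.46 in batch. All chemostat arrays were below all batch arrays, by a modest margin. The change was -0.51 log2 units (SE 0.065, 95% interval -0.66 to -0.36), a chemostat signal 0.703 times that of batch (adjusted p = 0.000128, limma).

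DLD2, the matrix D-2-hydroxyglutarate dehydrogenase, changed by a similar amount. Its signals were 9.01, 8.91 and 8.99 in chemostat and 9.43, 9.37 and 9.33 in batch. These groups were tight and separate. The change was -0.41 log2 units (SE 0.046, 95% interval -0.51 to -0.30), or 0.754 times the batch signal (adjusted p = 5.60e-05, limma). Neither DLD1 nor DLD2 passed a test that asks for more than a 1.5-fold change (adjusted p of 1 for each, limma's treat), whereas the other 5 members did, as did 21.4% of all genes.

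DLD3 encodes the cytosolic enzyme, which converts D-2-hydroxyglutarate to 2-oxoglutarate while turning pyruvate into D-lactate. It fell furthest of the 7. Its signals were 9.68, 9.68 and 9.72 in chemostat, against 11.34, 11.405 and 11.31 in batch. Replicates were close in either culture (SD 0.023 in chemostat and 0.048 in batch), far closer than the groups were to each other. The change was -1.66 log2 units (SE 0.041, 95% interval -1.75 to -1.56), so the transcript was 3.15-fold lower in chemostat (adjusted p = 1.30e-08, limma), and 30 genes fell further.

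**Figure D2:**
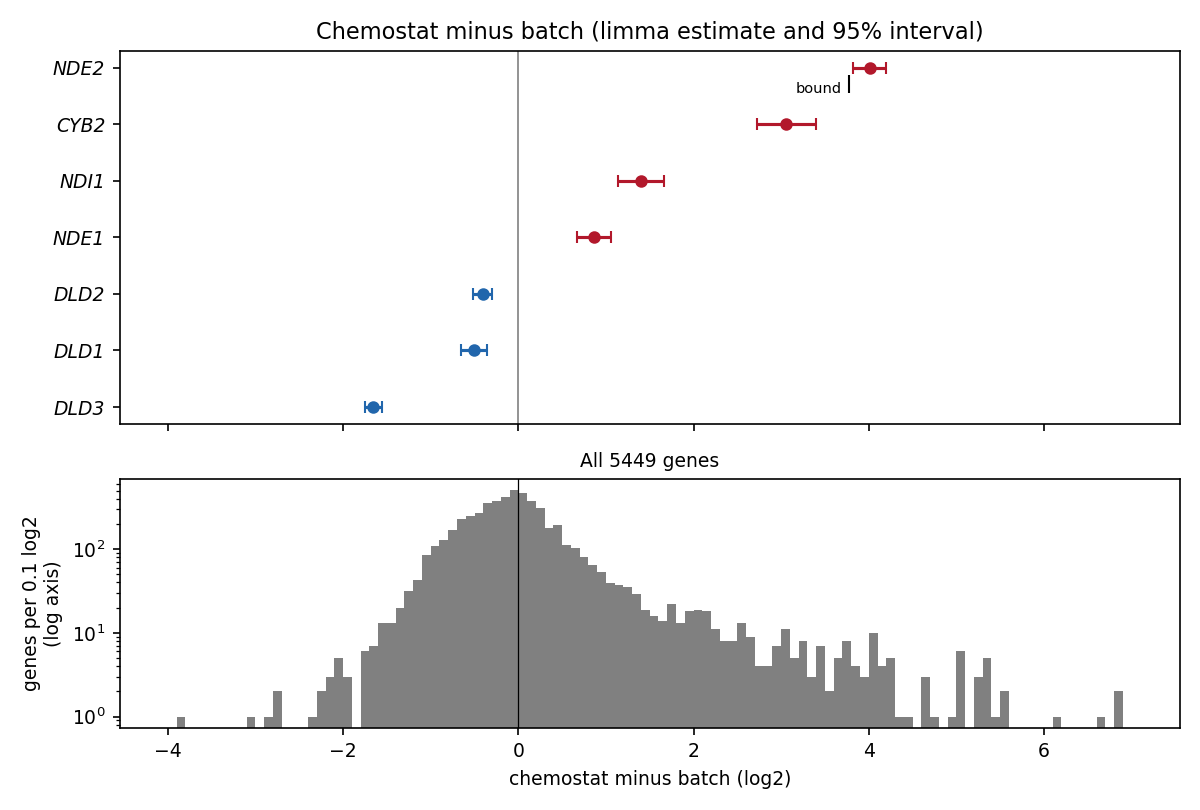
Change of each of the 7 genes (upper panel, chemostat minus batch, log2, with limma's 95% interval) above the distribution of the change over all 5449 genes (lower panel, logarithmic count axis). The short upright mark under NDE2 shows its bound when batch arrays are set to background. NDE2 at a fitted 4.01 and CYB2 at 3.06 lie in the sparse right tail, DLD3 at -1.66 lies in the left tail, and DLD1 and DLD2 lie in the body of the distribution.

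Whether enzymes with related tasks changed by different amounts was asked with 10 pairs of members, by taking the difference of both signals on each array. The sizes of such differences on an array depend on the probe sets, so only their shift between cultures was read. For 9 pairs the groups were apart, each with an exact permutation p of 0.1 (two-sided), the smallest that 3 against 3 arrays can give and 0.111 after Benjamini-Hochberg adjustment over the pairs. This exact test therefore cannot reach 0.05 for a pair. The pairs share members, and groups were apart for 81.7% of single genes. No share over other gene pairs was computed, so the count of 9 does not set these pairs apart.

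The external NADH dehydrogenase genes shifted against each other. NDE2 minus NDE1 was -1.15, -1.03 and -1.21 in chemostat, against -4.26, -4.21 and -4.36 in batch. Since NDE2 was below background in batch, the batch values are not measured sizes. With NDE2 set to background there, it rose by at least 2.91 log2 units more than NDE1 and at least 2.37 more than NDI1. NDE1 minus NDI1 was 1.17, 1.04 and 1.06 in chemostat and 1.58, 1.67 and 1.63 in batch, a shift of -0.54, so NDE1 rose less than NDI1.

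Among the lactate enzymes, CYB2 minus DLD1 was 0.74, 0.97 and 1.08 in chemostat, against -2.30, -2.86 and -2.75 in batch. The gene of the L-lactate enzyme thus changed by 3.57 log2 units more than that of the D-lactate enzyme. DLD2 minus DLD1 was -1.04, -0.97 and -0.83 in chemostat and -1.03, -0.98 and -1.13 in batch. These groups overlapped, with a shift of 0.10 (exact permutation p = 0.3, two-sided), and a difference in change between DLD2 and DLD1 was not detectable with 3 arrays per group. DLD3 minus DLD2 was 0.67, 0.77 and 0.73 in chemostat, against 1.91, 2.04 and 1.98 in batch, a shift of -1.25.

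**Figure D3:**
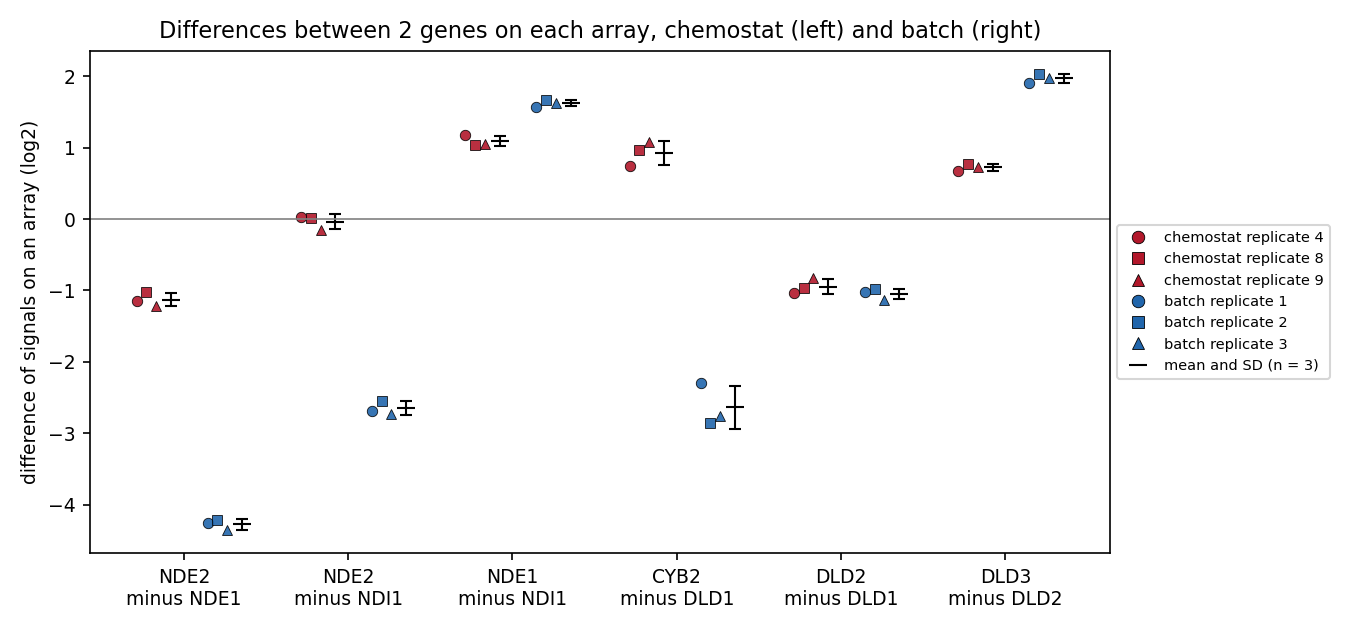
Difference between the signals of 2 genes on each array (log2) for 6 of the 10 pairs, chemostat in red on the left and batch in blue on the right of each pair of groups, with mean and SD over 3 arrays. DLD2 minus DLD1 is the pair whose groups overlap. NDE2 minus NDE1 has means of -1.13 in chemostat and -4.28 in batch.

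Within each group the rising genes tended to share the order of the arrays. NDI1, NDE1, NDE2 and CYB2 were lowest among chemostat arrays in replicate 4, which differed from the mean of replicates 8 and 9 by -0.29, -0.16, -0.19 and -0.08 log2 units. The same genes were highest among batch arrays in replicate 1, by 0.29, 0.21, 0.24 and 0.55 over the mean of replicates 2 and 3. Over all genes, the 5th percentile of the replicate 4 gap was -0.19 and the 95th percentile of the replicate 1 gap was 0.20. DLD3 differed by -0.02 in either comparison, though it too was lowest among chemostat arrays in replicate 4. DLD2 was also highest among batch arrays in replicate 1, by 0.08, but was 0.06 higher in chemostat replicate 4. DLD1 was 0.20 higher in chemostat replicate 4. HAP4, the regulatory subunit of the activator of respiratory genes, gave -0.24 for chemostat replicate 4 and 0.30 for batch replicate 1. The 10 listed regulators of respiratory and glucose-repressed genes, HAP4 among them, did not share these gaps as a set. Their medians were 0.004 for chemostat replicate 4 and 0.007 for batch replicate 1. Single regulators differed, with -0.17 and 0.30 for ADR1 but 0.10 and -0.12 for HAP2. The part of these arrays in the results was measured by leaving out both. With 2 arrays per group, all 7 members passed in the same direction, and the rise was 1.59 log2 units for NDI1 and 0.99 for NDE1.

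**Figure D4:**
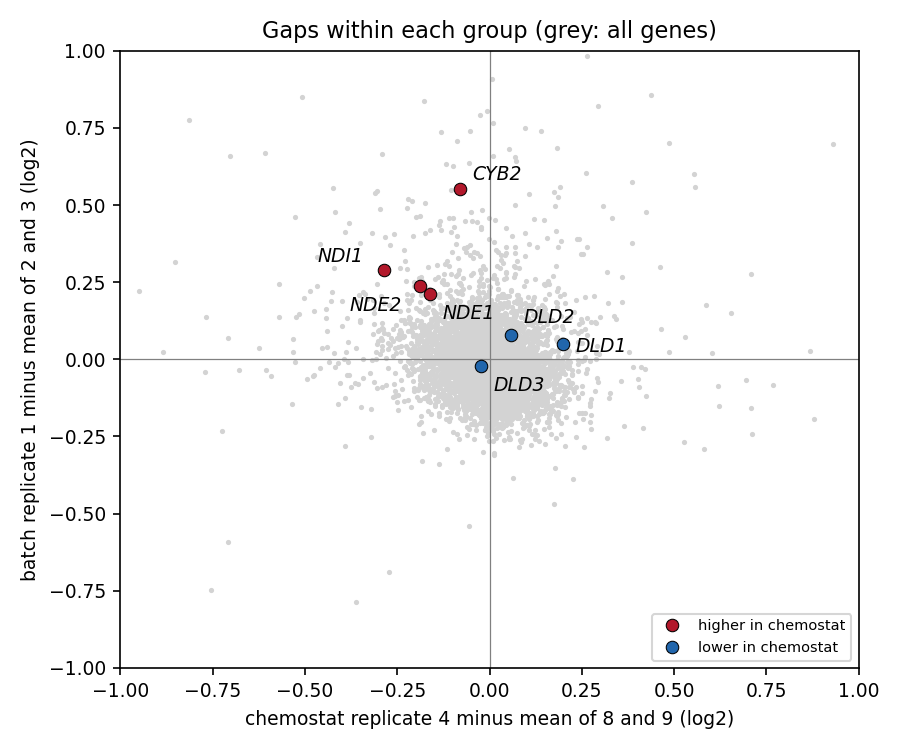
Gap of chemostat replicate 4 to the mean of replicates 8 and 9 (horizontal axis, log2) and gap of batch replicate 1 to the mean of replicates 2 and 3 (vertical axis, log2), with all genes in grey and the 7 members in colour. Beyond the axis limits lie 25 genes. NDI1, NDE1, NDE2 and CYB2 sit to the upper left, and DLD3 sits near the origin.

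For each member the 2 genes with the most similar profile over the 6 arrays were found, by the root mean square difference of profiles centred on their own mean. NDE2 was closest to ATG39, whose product marks the nuclear envelope for autophagy (0.055 log2 units), and OM45, a protein of the mitochondrial outer membrane (0.062). The batch signals of NDE2 were below background and the batch mean of ATG39 (5.96) was next to it, so the level of the background enters this likeness. OM45 averaged 10.97 ± 0.08 in chemostat and 6.88 ± 0.08 in batch (SD, n = 3 arrays each). CYB2 was closest to PGM2, a phosphoglucomutase (0.091), and AMS1, the vacuolar alpha-mannosidase (0.098). PGM2, chosen for its likeness over these same arrays, also spread widely in batch, with 9.76 ± 0.17 in chemostat and 6.74 ± 0.28 in batch.

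NDI1 lay nearest to YNL115C (0.045) and NTH1, the neutral trehalase (0.055), and NDE1 to IML2 and SRL4 (0.046 each). SRL4 averaged 6.14 in chemostat and 5.30, below background, in batch, where changes are compressed. DLD1 lay nearest to MYO2, a myosin that moves cargo along actin (0.032), and CHS7, which helps chitin synthase leave the endoplasmic reticulum (0.034). DLD2 was most like MZM1, an assembly factor of complex III (0.024), and JJJ3 (0.026). DLD3 was most like YML018C (0.056) and YMC2, a mitochondrial carrier protein (0.064). Among the members themselves, DLD1 and DLD2 were the closest pair, at 0.091.

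Several members share a chromosome, 3 on XIII (NDI1, NDE1, CYB2) and 3 on IV (NDE2, DLD1, DLD2), and 3 genes separate DLD2 from DLD1. The nearest protein-coding gene on either side of each member was also read, 14 in all, of which 13 were measured. Of those, 2 were higher in chemostat, 8 were lower and 3 did not pass, beside 33.6% higher and 44.8% lower over all genes. Both neighbours of NDE2 were lower: SUB2 changed by -0.38 and YDL085C-A by -1.18 log2 units. Both neighbours of DLD3 passed in opposite directions. RMD6 averaged 7.06 in chemostat and 7.95 in batch, a change of -0.89, and DSF1 averaged 6.89 in chemostat and 5.48, below background, in batch, at least 1.89-fold higher (adjusted p = 1.83e-07, limma). The DSF1 probe set carries the suffix of probes shared with other sequences.

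Other enzymes that feed electrons to ubiquinone were mostly higher. Of 11 measured genes, 9 rose and 2 fell, beside 33.6% higher and 44.8% lower over all genes. The median was 2.07, against -0.06 over all genes. GUT2, the mitochondrial glycerol-3-phosphate dehydrogenase that also takes electrons from cytosolic NADH by way of glycerol-3-phosphate, gave 11.52, 11.53 and 11.60 in chemostat, against 7.71, 7.43 and 7.44 in batch. It was above background in both cultures and rose by 4.02 log2 units (SE 0.076). SHH3, a paralogue of the succinate dehydrogenase subunit gene SDH3, gave 10.02, 10.73 and 10.73 in chemostat, against 5.46, 5.38 and 5.39 in batch, which is below background, and was at least 23.04-fold higher (adjusted p = 7.22e-08, limma). The genes that fell were CIR1 (-0.51, SE 0.045) and AIM45 (-0.26, SE 0.049), which encode a yeast electron transfer flavoprotein. CIR2, their partner that reduces ubiquinone, rose by 0.99 (SE 0.079).

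Ubiquinone synthesis genes changed in either direction, as genes did in general (33.6% higher and 44.8% lower over all genes). There were 4 genes that rose, 4 that fell and 3 that did not pass among the 11, and the median was -0.06. COQ4, which organises the synthesis complex, averaged 9.01 ± 0.03 in chemostat and 7.91 ± 0.08 in batch (SD, n = 3 arrays each), a rise of 1.10. COQ11 rose by 0.71, COQ9 by 0.58 and COQ3 by 0.21. COQ1, which makes the isoprenoid tail, changed by -0.59, COQ2 by -0.37, COQ8 by -0.33 and COQ5 by -0.13. CAT5, also called COQ7, had a change of 0.13 (adjusted p = 0.0505, limma) and passed without batch replicate 3 (0.15, adjusted p = 0.0498, limma) or chemostat replicate 9 (0.16, adjusted p = 0.0411, limma). It also passed with arrays centred on the gene median (adjusted p = 0.0468) or the S. pombe median (adjusted p = 0.0204), with a robust variance with trend (adjusted p = 0.0449) and with array weights (adjusted p = 0.0182, all limma). COQ10 had -0.06 and passed as lower without batch replicate 1 (-0.10, adjusted p = 0.0493, limma). COQ6 had -0.09.

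The next steps of the chain rose by small amounts. All 9 complex III genes on the list were higher, beside 33.6% of all genes, with a median of 0.65 and a range of 0.24 to 0.83. QCR10 averaged 11.03 ± 0.01 in chemostat and 10.19 ± 0.16 in batch, and the Rieske protein gene RIP1 averaged 11.22 ± 0.08 in chemostat and 10.47 ± 0.01 in batch. Under the test for more than 1.5-fold, 2 of the 9 passed, a share near the 21.4% of all genes.

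Cytochrome c accepts electrons from Cyb2 and Dld1. CYC1, the main isoform, gave 11.54, 11.43 and 11.43 in chemostat, against 11.51, 11.30 and 11.32 in batch, and the groups overlapped (change 0.09, adjusted p = 0.230, limma). It passed once batch replicate 1 was left out (0.16, adjusted p = 0.0198, limma) and after quantile normalization (0.22, adjusted p = 0.00770, limma). CYC7, the minor isoform, gave 7.33, 7.54 and 7.57 in chemostat, against 6.20, 6.06 and 5.98 in batch, just above background. It rose by 1.40 log2 units (SE 0.079, adjusted p = 1.02e-06, limma). Of the maturation genes, CYC2 rose by 0.15 (adjusted p = 0.0158, limma) but did not pass without chemostat replicate 8 (0.15, adjusted p = 0.0593, limma), and CYC3 had -0.01.

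Of the genes of NADH shuttles and mitochondrial carriers, 8 of 15 were higher, 6 lower and 1 did not pass (median 0.31), beside 33.6% higher and 44.8% lower over all genes. MDH2, the cytosolic malate dehydrogenase, averaged 11.00 ± 0.16 in chemostat and 6.86 ± 0.05 in batch, a rise of 4.14 (SE 0.077). The carrier paralogues of 2-oxodicarboxylates moved apart, with ODC1 at 9.57 ± 0.12 in chemostat and 7.43 ± 0.04 in batch, and ODC2 at 9.70 ± 0.06 in chemostat and 10.71 ± 0.10 in batch. OAC1, the oxaloacetate carrier, fell to 9.25 ± 0.02 in chemostat, against 10.51 ± 0.07 in batch. GPD2, a glycerol-3-phosphate dehydrogenase of the cytosol, had a change of 0.02 and was lower after quantile normalization (-0.24, adjusted p = 0.00309, limma).

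Lactate must enter the cell or be made there before these enzymes act. JEN1, the lactate and pyruvate permease, gave 11.86, 12.07 and 12.11 in chemostat, against 6.08, 5.70 and 5.75 in batch, and its batch mean was below background. For JEN1 the gap of chemostat replicate 4 was -0.23 and that of batch replicate 1 was 0.35. The acetate transporter gene ADY2 was likewise at background in batch, but its gaps were 0.19 for chemostat replicate 4 and -0.03 for batch replicate 1. D-lactate arises from methylglyoxal through the glyoxalases. GLO1 rose by 0.87 (SE 0.058), GLO2 by 0.48 (SE 0.048) and the mitochondrial glyoxalase II gene GLO4 by 1.24 (SE 0.094). In total 6 of the 7 genes on this list were higher (median 1.24), beside 33.6% of all genes. HSP31, a methylglyoxalase, gave 8.95, 9.69 and 9.75 in chemostat, against 9.54, 9.56 and 9.60 in batch. It did not pass (adjusted p = 0.629, limma), and without chemostat replicate 4 it was higher by 0.15 (adjusted p = 0.0168, limma).

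SER3 and SER33 encode phosphoglycerate dehydrogenases, which can also make D-2-hydroxyglutarate, the substrate of Dld2 and Dld3. SER3 gave 9.19, 9.17 and 9.09 in chemostat, against 10.24, 10.18 and 10.25 in batch. SER33 gave 9.11, 9.12 and 9.17 in chemostat and 10.52, 10.57 and 10.46 in batch. The groups did not overlap for either gene, as was the case for 81.7% of all genes. The changes were -1.07 (SE 0.044) and -1.38 (SE 0.043), beside -1.66 for DLD3 and -0.41 for DLD2.

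DLD3 is known as a target of the retrograde pathway, which signals mitochondrial dysfunction to the nucleus through Rtg1, Rtg2 and Rtg3. The other 5 listed targets did not move as a block. CIT2 (-0.61, SE 0.12), IDH1 (-0.25, SE 0.050) and IDH2 (-0.62, SE 0.052) fell. PDH1, of propionate breakdown, rose by 2.07 (SE 0.057), and ACO1 rose by 0.21 (SE 0.075, adjusted p = 0.0298, limma). ACO1 did not pass without batch replicate 1 (0.18), batch replicate 2 (0.18), chemostat replicate 8 (0.21) or chemostat replicate 9 (0.15), where its adjusted p lay between 0.0699 and 0.101 (limma). Nor did it pass after subtraction of the S. pombe median (adjusted p = 0.0560) or adjustment over all probe sets (adjusted p = 0.0607, both limma). Of the regulators, RTG1 rose by 0.32 (SE 0.053), while RTG2 (0.01), RTG3 (0.10) and the inhibitor MKS1 (-0.05) did not pass. RTG3 was higher without batch replicate 3 (0.15, adjusted p = 0.0380, limma) and with array weights (0.12, adjusted p = 0.0430, limma), and RTG1 did not pass after quantile normalization (0.05, adjusted p = 0.442, limma).

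Regulators of respiratory and glucose-repressed genes were higher in 9 of 10 cases (median 0.64), beside 33.6% of all genes, and HAP3 did not pass. The list mixes activators and repressors, and the 9 include the repressor genes MIG1 (0.34, SE 0.057) and ROX1 (0.53, SE 0.042). HAP4 gave 9.47, 9.65 and 9.78 in chemostat, against 8.82, 8.43 and 8.61 in batch, a rise of 1.02 (SE 0.11). ADR1, an activator of genes for non-fermentable carbon use, gave 8.13, 8.28 and 8.32 in chemostat, against 5.89, 5.48 and 5.71 in batch, and was at least 4.85-fold higher (adjusted p = 1.54e-07, limma). SIP4, an activator of gluconeogenic genes, was at least 3.89-fold higher, also from background in batch (adjusted p = 2.78e-08, limma). Under the test for more than 1.5-fold, 5 of the 10 passed, beside 21.4% of all genes.

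**Figure D5:**
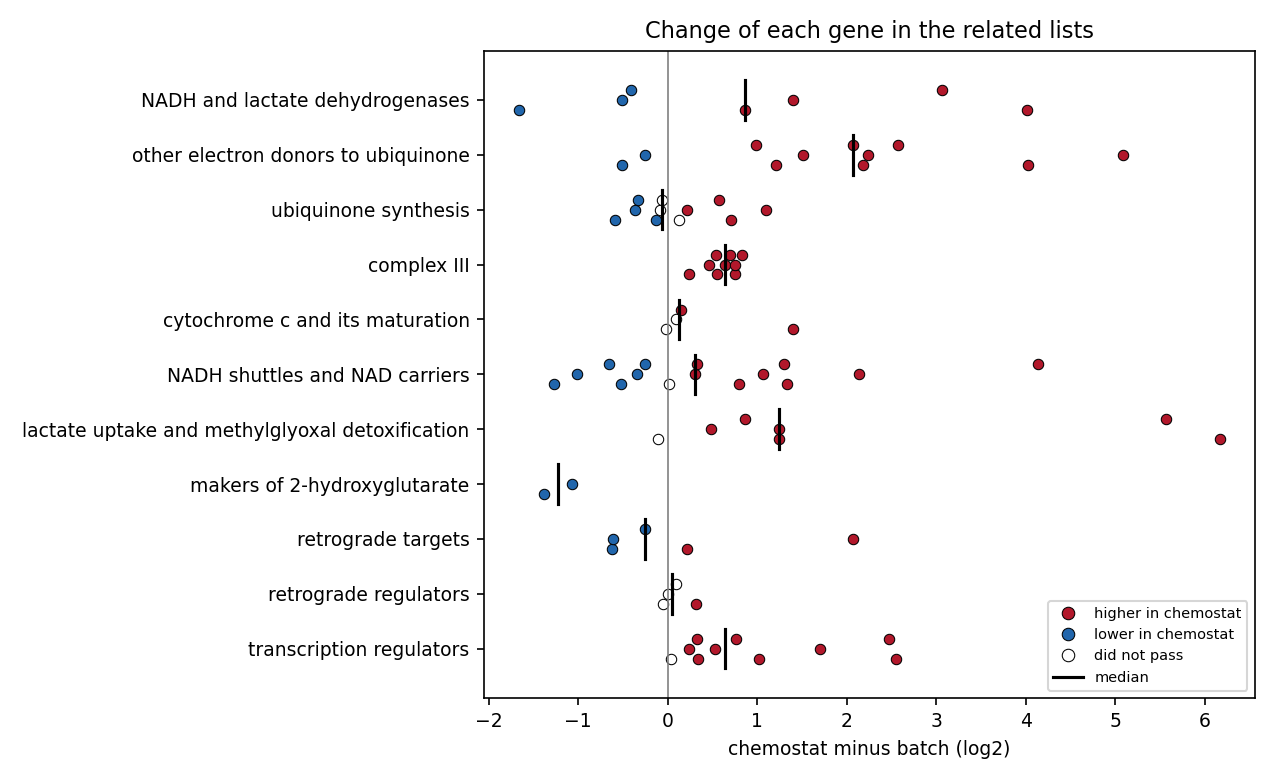
Fitted change of each gene (chemostat minus batch, log2) in the 7 dehydrogenase genes and the 10 related lists, with red for higher, blue for lower and white for genes that did not pass, and a black bar at each median. Complex III lies wholly to the right of 0, ubiquinone synthesis and the NADH shuttles lie on both sides, and SER3 and SER33 lie to the left.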

How the data were processed

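The authors deposited signals on a log scale for probe sets on each array, taken here as log2 from their range, and the submitters' processing notes name PLIER as the tool. Not given in the sources used here were its version, background correction and between-array step. The values ran between 4.95 and 13.3 and were used as deposited. The 10928 probe sets comprised 5498 with 1 S. cerevisiae gene, 1746 of S. pombe, 213 controls, 1 with several genes and 3470 without a gene name here. The brightest probe set stood for each of 47 genes with several. Symbols and neighbouring genes came from a reference table of assembly R64. No coordinates are given because the array files name no build.

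Chemostat was compared with batch by limma 3.58.1 (lmFit and eBayes) in R 4.3.3 without covariates, over 5449 genes, with Benjamini-Hochberg adjustment and a threshold of 0.05. A gene whose mean was under background in 1 group has a bound, in which each array of that group takes the higher of its own S. pombe 95th percentile and the gene's signal. On simulated data of 5449 genes for chemostat against batch, 50% of genes shifted by 0.25 log2 units were recovered, 90% at 0.5, 98% at 1 and 100% at 2. False calls numbered 6 of 175. Only 50 genes were shifted at each size, whereas 78.4% of genes passed in the data, so these rates need not hold there.

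The members, lists and tests were chosen with earlier results of these data known. Named are the members, the 2 genes most like each, the 2 largest changes of each related list with the largest in the other direction, and all members of lists of up to 4. JEN1, GUT2, CYC1, CYC7 and HAP4 were named too. Flanking genes were taken by position. Other listed genes were named after their values were seen, where a count was small or a call changed. YJL045W and promoter motifs were not analysed here, nor was RNA sequencing of the same extractions. The number of arrays limits the precision. Alternatives were quantile normalization, centring on the gene or S. pombe median, removal of genes dim in both groups, a robust variance with trend, weights for arrays, averaging the probe sets of a gene, subtraction of the S. pombe median with a floor at 1, adjustment over all probe sets, a threshold of 0.01, a minimum change of 1.5-fold (treat) and each replicate left out. Leaving out batch replicate 1 and chemostat replicate 4 together was added after seeing the data.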

Additional observations from a re-analysis of the deposited data

How the results depend on the processing

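Over 18 alternatives, the 7 dehydrogenase genes kept their direction in all 126 values, though some of the settings could not change it. They kept their side of the threshold in 124. The exceptions were DLD1 (-0.51) and DLD2 (-0.41) under limma's treat at 1.5-fold, with an adjusted p of 1 for each, since that test asks for a larger change. Treat also left 601 genes higher and 564 lower of all genes, and 29 higher and 4 lower in the related lists, against 1829, 2442, 50 and 17 in the test without a minimum change. Like treat, several settings left the fitted change of each member as it was, so its direction was not tested there. They were removal of dim genes, the robust variance with trend, averaging of probe sets, adjustment over all probe sets and the stricter threshold. With single replicates left out, NDI1 ranged between 1.30 and 1.495, NDE1 between 0.79 and 0.93, NDE2 between 3.96 and 4.09, CYB2 between 2.91 and 3.24, DLD1 between -0.58 and -0.46, DLD2 between -0.43 and -0.38, and DLD3 between -1.68 and -1.63. Subtracting the S. pombe median raised the fitted change of NDE2 to 5.65. The shift of NDE2 minus NDE1 was then 4.76 (3.15 as deposited), NDE2 minus NDI1 4.14 (2.61), NDE2 minus CYB2 2.35 (0.95, or at least 0.71 with NDE2 at background in batch) and NDE1 minus NDI1 -0.62 (-0.54). The first pair gave 3.02 and the second 2.46 after quantile normalization. The cause was not tested. Of 90 pair values under alternatives, 84 moved by less than the spread between replicates. Averaging of probe sets could not move a pair, since each member has 1. Counts within single lists stayed within 1.5 times in 337 of 360 values. No paired analysis was possible because the groups share no replicate numbers. Signals near background limit NDE2 in batch to a bound.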
